A study of Mus musculus with 16 samples.

Results

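The 57 genes described here encode complexes II to V of the mitochondrial respiratory chain and ATP synthase, together with the complex IV assembly factors that carry Cox names. They were taken from a deposited table of 57143 genes as the protein-coding rows named Sdha to Sdhd, Uqcr, Cox with a digit, or Atp5, with a mean of 0.5 or more TPM (a level per gene length, scaled to the same total in each library) over the 16 libraries. Of 59 rows matched by name, 2 were at 0 TPM and dropped out: Cox8c and a second copy of Atp5po. The members were 4 genes of complex II, 8 of complex III, 27 of complex IV and 18 of complex V, and all 57 lay among the 16866 genes tested. The 27 names of complex IV comprised 16 subunits, the supercomplex factor Cox7a2l, 9 assembly factors and Cox5b-ps, a row named as a pseudogene that the table lists as protein-coding and that may share reads with Cox5b.

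Male C57BL/6 mice had abdominal surgery with sevoflurane, an inhaled anaesthetic, and left ventricle RNA was taken at 4 times, 0h, 3h, 24h and 7d, with 4 libraries each. The 0h libraries carry the surgery label too, no group is labelled as unoperated, and neither age nor a genotype beyond the strain is given in the sources used here. The series is titled for a mouse model of heart injury after surgery outside the heart, and the comparisons below ask how these genes stood at each time. No label states whether libraries of 1 time are different mice. The p-values therefore rest on variation among these libraries, which may be technical.

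Respiratory complexes pass electrons to oxygen and store the energy as a proton gradient across the inner mitochondrial membrane, and heart muscle depends on them for its steady beat. Complex II, succinate dehydrogenase, also belongs to the citric acid cycle and is the one complex encoded in the nucleus alone. Complex III hands electrons to cytochrome c, complex IV hands them to oxygen, and complex V uses the gradient to make ATP. The core catalytic subunits of complex IV, cytochrome b of complex III and a pair of membrane subunits of complex V are encoded in mitochondrial DNA. The deposited table lists no mitochondrial genes, so those subunits were not analysed here. Several nuclear subunits of complex IV exist as pairs of isoforms, a heart and muscle form and a general form.

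The smallest library held 8.31 M (mega) counts in total, and the group means lay between 9.34 ± 0.248 M (3h) and 11.9 ± 1.20 M (7d; SD, n = 4). Myl2, the ventricular myosin light chain, lay between 15110 and 20130 TPM in all libraries. The summed level of 8 cardiomyocyte markers was lower in every 24h library (80065 to 89333 TPM) than in every 0h library (92039 to 96269), and Actc1, cardiac actin, measured 13030 TPM or more in each 0h library and 9276 or less in each 24h library. The sum was 91429 to 96509 at 3h and 79948 to 101790 at 7d, and its part in the members' results was not tested. Myl7, its atrial counterpart, stood at 146 TPM in 3h replicate 3, 63.8 in 24h replicate 1, 126 in 24h replicate 2 and 159 in 24h replicate 4, and at 9.59 or less in the other 12 libraries. Cox8b and Cox7a1 are also used as brown fat markers. Of that marker list, Ucp1 and Elovl3 were at 0.774 TPM or less in every library, but Cidea was not as low. In 0h replicate 4 the whole list summed to 15693 TPM, with Cox8b at 7619 and Cox7a1 at 7978. The white fat list, which holds its other markers Plin1 and Adipoq, summed to 5.43 TPM in that library. The part of fat cells in the members' results was not tested. Myh1, Myh2 and Myh4, the fast myosins of skeletal muscle, were at 0.157 TPM or less. The whole skeletal muscle list, which also holds Acta1, Ckm, Tnni2, Tnnt3 and Pvalb, summed to 2530 TPM in 7d replicate 2 and up to 4662 in 0h replicate 3. Its mean was 4024 at 0h and 2974 at 7d, and its part in the members' results was not tested. As these are bulk libraries, fewer cells of a type and less RNA per cell cannot be told apart.

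The members summed to a large part of the transcriptome, and the sum was higher at 3h and 24h than at 0h. Their share of all TPM was 8.79%, 9.55%, 8.78% and 9.74% in 0h replicates 1 to 4. It was 11.4%, 10.4%, 10.1% and 10.5% at 3h, and 11.8%, 10.4%, 9.60% and 11.6% at 24h. At 7d it was 9.37%, 9.75%, 10.8% and 9.42%. All 3h libraries thus stood above all 0h libraries, while 24h replicate 3 fell inside the 0h range and 24h replicates 1 and 4 were the highest of their group. Complex IV made up 47.8 ± 0.852% of the members' summed TPM at 0h, complex V 29.8 ± 0.688%, complex III 17.1 ± 0.199% and complex II 5.22 ± 0.283% (mean ± SD, n = 4).

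**Figure D1:**
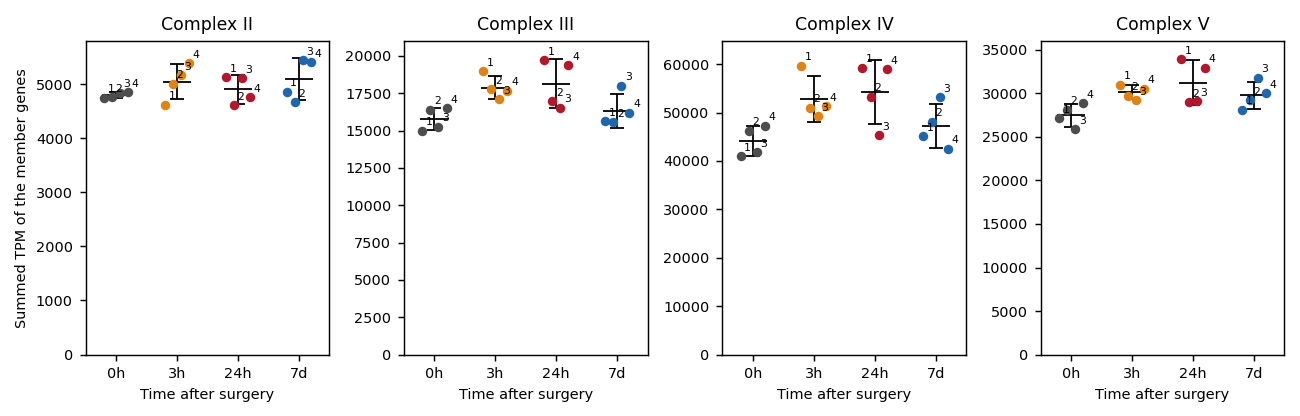
Summed TPM of the member genes of complexes II, III, IV and V in each library, by time after surgery; points are libraries with their replicate number, and bars are the mean ± SD of 4 libraries. The sum for complex IV lay between 41011 and 47257 at 0h and between 49207 and 59684 at 3h, while that for complex II lay between 4609 and 5439.7 in all libraries.

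At 24h against 0h, 29 of the 57 members were higher and 1 was lower by edgeR's quasi-likelihood test at an adjusted p under 0.05, where 9.2% of all genes tested were higher and 8.19% lower. The members' median log2 fold change was 0.42, against -0.01 over all genes tested. At 3h, 1 member was higher and 0 lower, with 1.86% of all genes higher and 3.18% lower, yet the median was 0.36, against 0 over all genes. An unadjusted p under 0.05 was reached by 40 of the 57 members at 3h, and by 3735 of all 16866 genes tested (edgeR). At 7d, edgeR called 0 members and DESeq2 1. In edgeR 0.184% of all genes were higher and 0.676% lower, and in DESeq2 1.04% and 1.81%. At 7d 13 of the 57 members reached an unadjusted p under 0.05 in edgeR, as did 2584 of all 16866 genes. The median at 7d was 0.20, with 51 of 57 values above 0. The 3 comparisons share the 0h libraries, so their values are not independent of each other.

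**Figure D2:**
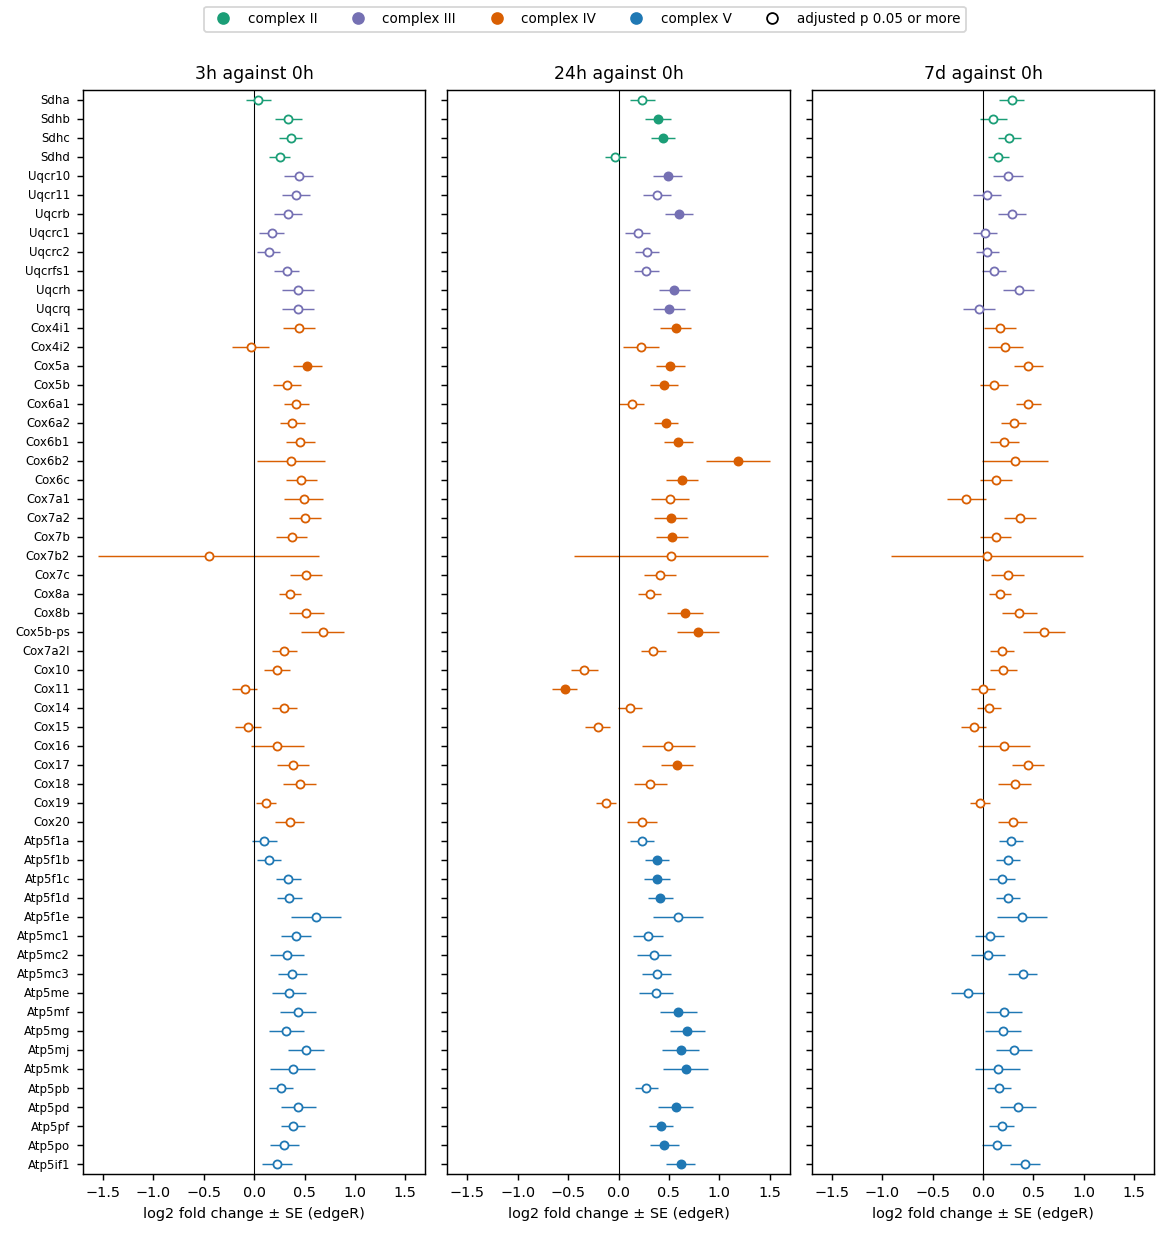
Log2 fold change ± SE (edgeR, 4 libraries in each group) of the 57 members at 3h, 24h and 7d against 0h, ordered and coloured by complex; filled points have an adjusted p under 0.05. Filled points number 1 at 3h, 30 at 24h and 0 at 7d, and at 24h Cox11 is the 1 filled point left of 0. The SE was derived from the F statistic of the test.

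The count at 24h changed with single libraries. Without 24h replicate 4 it was 8 members, without 24h replicate 1 or 0h replicate 1 it was 10 each, without 0h replicate 3 it was 12, and without 24h replicate 3 it was 41. The share of all genes called was not counted in these fits. A change in the members alone therefore cannot be told apart from a change in calls over all genes. The table's gene lengths gave each library a mean gene length weighted by TPM, taken over all genes but the members. This length was shortest in 3h replicate 1, at 2853 bases, and in 24h replicates 1 and 4, at 2910 bases each, and lay between 3188 and 3302 bases at 0h. In those 3 libraries the members stood 0.35, 0.39 and 0.39 above their mean over 16 libraries (median log2 deviation), against -0.35, -0.16, -0.34 and -0.09 in the 0h libraries. In 24h replicate 3, with a length of 3265 bases, they stood at -0.08. Without the 3 libraries of shortest length, a choice made after seeing the data, 0 members were called at 24h, and 1.59% of all genes were higher and 1.48% lower. An unadjusted p under 0.05 was reached by 8 members in that fit, where the share of all genes was not counted. The members' median was then 0.18 at 24h and 0.27 at 3h.

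**Figure D3:**
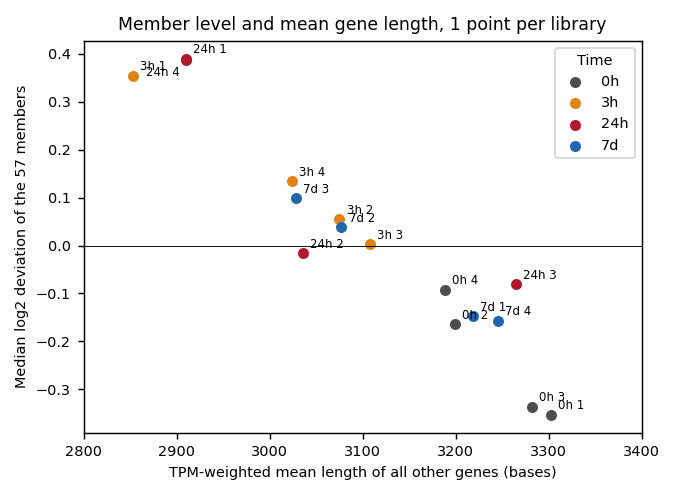
Median log2 deviation of the 57 members from their mean over 16 libraries, against the TPM-weighted mean length in bases of all other genes, with 1 point per library coloured by time. The 3 libraries of shortest length, 3h 1, 24h 1 and 24h 4, hold the 3 highest deviations, and 0h 1 and 0h 3, the 2 of longest length, hold the 2 lowest.

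Above 500 bases, gene length went with the fold changes of other genes as well, with lower medians in longer classes. Non-members of 500 bases or less did not follow, with medians of 0.16 at 3h and 0.06 at 24h. The 2 members of that length had 0.60 and 0.72. Among non-members of 500 to 1000 bases the median was 0.24 at 3h and 0.27 at 24h, while the 13 members of that length had 0.38 and 0.47. Among genes of 2000 to 4000 bases the medians were 0.07 at both times for the others and 0.36 and 0.39 for the 15 members. Members had the higher median in these classes, in which they were not matched to the other genes on level. With the mean gene length as a covariate the members' median fell to 0.05 at 3h and 0.12 at 24h, 22 of the 57 members at 3h and 11 at 24h took the other sign, 1 member was called at 24h (2.05% of all genes higher and 1.67% lower), and with a gene-length trend removed from each library it was 0.24 and 0.34. Whether RNA quality or another property of those libraries had a part in the result was not tested.

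Of the markers of other cells, those of neutrophils differed between 0h and the later times, while the summed atrial markers overlapped between all groups. Of 6 atrial markers, Myl7, Myl4 and Sln were highest in the same 4 libraries, Bmp10 was at 0.0717 TPM or less, and the summed level of the 6 was 456 to 1468 TPM at 0h, 258 to 745 at 3h, 482 to 1011 at 24h and 536 to 2766 at 7d. The highest sums, 2766 in 7d replicate 2 and 1468 in 0h replicate 3, lay outside those 4 libraries, so Myl7 does not stand for the whole list. With Myl7 as a covariate 0 members were called at 24h (25 at an unadjusted p under 0.05, where the share of all genes was not counted). Neutrophil markers, 7 genes, summed to 8.96 to 10.7 TPM at 0h, 146 to 562 at 3h, 67.2 to 325 at 24h and 15.4 to 107 at 7d, and Ly6g was at 0 in 10 libraries. Erythroid markers, globin genes and Alas2, also varied within groups. In replicates 1 to 4 they summed to 251, 866, 129 and 1402 TPM at 0h and to 1028, 528, 362 and 897 at 3h. The sums were 1245, 450, 895 and 963 at 24h, and 162, 835, 263 and 392 at 7d. The part of any of these cell types in the members' result was not tested.

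The fit with Myl7 called 0.397% of all genes higher and 0.314% lower, and the members' median at 24h was 0.45 in it. On the deposited TPM the all-gene median against 0h was -0.15 for 3h and -0.19 for 24h on log2(TPM + 1), so that the members' differences in TPM are smaller than edgeR's folds, which are centred on the bulk of genes. On log2(TPM + 1) limma called 11 members higher and 4 lower at 24h, with 3.81% of all genes higher and 17.2% lower. After quantile normalization it called 7 members higher and 3 lower, with 8.91% of all genes higher and 9.08% lower.

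Promoter sequence is shown to set members that were called beside members that were not. RefSeq promoters (GRCm38.p6) were matched for 42 of the 57 members, and the 250 bases before each start were searched on both strands for 6 short motifs. The ETS core CCGGAAG stood in 12 of the 42 (28.6%), against 14.65% of 10895 tested genes with a promoter entry. The NRF1 core CGCATGCG stood in 5 (11.9%, against 3.31%), the ERR half-site AAGGTCA in 2 (4.8%, against 3.52%) and the YY1 core AAGATGGCG in 1 (2.4%, against 1.34%). The E-box CAGCTG stood in 2 (4.8%, against 14.53%) and TATAAA in 3 (7.1%, against 8.44%). A match is a stretch of letters, not a shown binding site. The last 150 bases before the start follow, 5′ to 3′ on the gene's strand with motif letters in capitals, for a gene of each complex that holds the ETS core (CTTCCGG is that core on the other strand), with Cox10 for complex IV.
Sdhd, chr9:50603850-50603999, - strand: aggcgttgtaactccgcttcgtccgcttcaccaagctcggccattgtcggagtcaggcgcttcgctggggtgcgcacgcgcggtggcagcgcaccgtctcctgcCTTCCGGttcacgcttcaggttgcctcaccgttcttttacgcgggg
Uqcrh, chr4:116075071-116075220, - strand: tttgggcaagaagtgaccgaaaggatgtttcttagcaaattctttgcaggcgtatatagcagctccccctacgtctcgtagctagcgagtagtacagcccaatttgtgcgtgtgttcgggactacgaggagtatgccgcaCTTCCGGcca
Cox10, chr11:64079473-64079622, - strand: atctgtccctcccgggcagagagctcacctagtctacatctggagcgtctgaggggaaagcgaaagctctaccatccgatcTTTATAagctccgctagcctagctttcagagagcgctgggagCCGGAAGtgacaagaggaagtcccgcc
Atp5f1e, chr2:174464102-174464251, - strand: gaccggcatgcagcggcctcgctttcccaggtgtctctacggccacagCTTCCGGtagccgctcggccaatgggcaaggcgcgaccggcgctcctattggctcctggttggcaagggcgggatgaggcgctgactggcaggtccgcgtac
The core began 46 bases before the start in Sdhd, 10 in Uqcrh, 27 in Cox10 and 102 in Atp5f1e. Cox10 also holds TATAAA on the other strand, printed as TTTATA and beginning 69 bases before the start. The genes printed above did not move alike at 24h, with log2 fold changes of -0.04, 0.55, -0.34 and 0.59, of which that of Uqcrh was called.

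Complex II showed 2 of its 4 genes higher at 24h and 0 at 3h and 7d. Sdha, the flavoprotein that oxidizes succinate, measured 1209, 1091, 1108 and 1067 TPM at 0h, 809, 990, 1100 and 1163 at 3h, 1089, 965, 1448 and 1038 at 24h, and 1314, 1149, 1216 and 1421 at 7d. The groups overlap at every time, and the log2 fold changes were 0.04, 0.23 and 0.28 with no call. Sdhb, the iron-sulfur subunit, measured 1606, 1751, 1740 and 1819 TPM at 0h and 2207, 1894, 1774 and 1888 at 24h, where 24h replicate 3 lay inside the 0h range. Its log2 fold change was 0.39 (SE 0.13, adjusted p = 0.0415, edgeR), a call lost without any of 0h replicates 1 to 3 or 24h replicates 1 and 4 (adjusted p up to 0.179). Sdhc, a membrane anchor that binds haem, measured 581, 603, 583 and 584 TPM at 0h and 752, 619, 671 and 684 at 24h, with no overlap. It rose by a log2 fold change of 0.44 (SE 0.12, adjusted p = 0.0111, edgeR), a call lost without 24h replicate 1 (adjusted p = 0.0607, and 0.0035 to 0.0607 over the 8 libraries left out).

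Sdhd, the other membrane anchor, did not follow Sdhb and Sdhc at 24h. It measured 1353, 1311, 1414 and 1381 TPM at 0h, 1362, 1420, 1491 and 1463 at 3h, 1084, 1131, 1218 and 1148 at 24h, and 1298, 1339, 1507 and 1533 at 7d. All 24h libraries lay below all others in TPM. Scaled to the bulk of genes its log2 fold change at 24h was -0.04 (SE 0.10, adjusted p = 0.848, edgeR), and against 3h it was -0.29 (adjusted p = 0.0922). It was called lower at 24h on log2(TPM + 1) (limma, -0.25, adjusted p = 0.0215) and after quantile normalization (-0.31, adjusted p = 0.0176), while adjusted p ranged from 0.0176 to 1 over 15 other settings. Leaving out 24h replicate 2 gave 0.01, so that its direction against 0h depended on the scaling and on single libraries. The 4 assembly factors of complex II, Sdhaf1 to Sdhaf4, had medians of 0.22 at 3h, 0.03 at 24h and 0.07 at 7d with 0 calls.

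Complex III showed 4 of its 8 genes with Uqcr names higher at 24h, all of them small subunits, with a median log2 fold change of 0.43. Uqcrb, a small subunit on the matrix side, measured 1984, 2289, 2130 and 2303 TPM at 0h, 2604, 2358, 2234 and 2478 at 3h, 3007, 2515, 2524 and 3187 at 24h, and 2513, 2353, 2755 and 2325 at 7d. Every 24h library lay above every 0h library. Its log2 fold change at 24h was 0.60 (SE 0.14, adjusted p = 0.00554, edgeR), and the call held without each single library. It was lost with Myl7 or mean gene length as a covariate and without the 3 libraries of shortest length (adjusted p up to 0.248). Uqcrh, the acidic hinge protein near cytochrome c1, measured 1772, 2030, 1812 and 2010 TPM at 0h and 2852, 2231, 1979 and 2469 at 24h, with 24h replicate 3 inside the 0h range (log2 fold change 0.55, SE 0.15, adjusted p = 0.0169, edgeR). Uqcr10 and Uqcrq, further small subunits, rose by 0.49 and 0.50 (adjusted p = 0.0243 and 0.0323). These 3 calls were lost without 24h replicate 4, among other libraries.

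The large core proteins and the Rieske protein of complex III were not called. Uqcrc1, a core protein, measured 1118, 1081, 1101 and 1133 TPM at 0h and 1089, 989, 1237 and 1038 at 24h, values that overlap, with a log2 fold change of 0.19 (SE 0.12, adjusted p = 0.295, edgeR) that turned to -0.06 after quantile normalization. Uqcrc2, the other core protein, had 0.28 (adjusted p = 0.095), Uqcrfs1, the Rieske iron-sulfur protein, 0.27 (adjusted p = 0.126) and Uqcr11, a small subunit, 0.38 (adjusted p = 0.062). In the table Uqcrc1 and Uqcrc2 are 4135 and 2552 bases long, Uqcrfs1 1363 and Uqcr11 641. The called Uqcr10, Uqcrb, Uqcrh and Uqcrq are 584, 876, 1237 and 1831 bases long. With mean gene length as a covariate 0 genes of the complex were called at 24h, and its median was 0.13. The part of gene length in these calls was not tested. At 3h Uqcr10 had the highest log2 fold change of the complex, 0.44 (adjusted p = 0.0745), and Uqcrc2 the lowest, 0.14. At 7d the highest was that of Uqcrh, 0.35, and the lowest that of Uqcrq, -0.04, and none was called.

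Uqcrq, a small subunit beside cytochrome b, was the complex III gene called lower from 24h to 7d. It measured 2454, 2240, 1797 and 2562 TPM at 24h and 1707, 1614, 1931 and 1605 at 7d, with 24h replicate 3 inside the 7d range. From 24h to 7d it fell by 0.54 on the log2 scale (SE 0.16, adjusted p = 0.0349, edgeR), a call lost without 24h replicate 1 or 4 and 3 of the 7d libraries (adjusted p up to 0.153). In that comparison 2 members were higher and 2 lower, with 3.74% of all genes higher and 4.34% lower. Cyc1 and Cycs, cytochrome c1 and cytochrome c, had a median of 0.26 at 3h, 0.08 at 24h and -0.06 at 7d with 0 calls. Cyc1 is itself a subunit of complex III that the naming rule leaves out, and it had 0.14 at 24h (adjusted p = 0.449, edgeR). Of 9 assembly factors of complex III, 1 was higher and 2 were lower at 24h, where 9.2% of all genes tested were higher and 8.19% lower. Uqcc1, a factor for cytochrome b synthesis, fell by 0.46 (adjusted p = 0.0123) and Lyrm7, which guides the insertion of the Rieske protein, fell by 0.44 (adjusted p = 0.0183). Uqcc3, a further factor for cytochrome b, rose by 0.40 (adjusted p = 0.0351).

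Complex IV split by role: 10 of 16 subunits were higher at 24h and 0 lower, with a median log2 fold change of 0.51, while of the 9 assembly factors with Cox names 1 was higher and 1 lower, with a median of 0.11. Over all genes tested 9.2% were higher and 8.19% lower, so that the counts of these assembly factors were near that share. Cox6b1, a subunit on the side of cytochrome c, measured 3935, 4512, 4293 and 4589 TPM at 0h, 5736, 5198, 4891 and 5137 at 3h, 5889, 5525, 4572 and 6293 at 24h, and 4647, 5045, 4926 and 4173 at 7d. All 3h libraries lay above all 0h libraries, and 24h replicate 3 lay inside the 0h range. At 24h its log2 fold change was 0.59 (SE 0.14, adjusted p = 0.00749, edgeR), which held without each single library. Cox6c, a small membrane subunit, measured 1048, 1333, 1173 and 1305 TPM at 0h and 1689, 1532, 1340 and 1845 at 24h, with no overlap. Its log2 fold change was 0.63 (SE 0.16, adjusted p = 0.00901, edgeR), held without each single library. The calls of Cox6b1 and Cox6c were lost with Myl7 or mean gene length as a covariate and without the 3 libraries of shortest length. That of Cox6c was also lost after quantile normalization. In these settings adjusted p ran up to 0.295 for Cox6b1 and 0.336 for Cox6c.

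Cox5a, a matrix-side subunit, was the 1 member called at 3h. It measured 1376, 1214, 1210 and 1298 TPM at 0h, 1630, 1506, 1587 and 1734 at 3h, 1885, 1375, 1327 and 1592 at 24h, and 1447, 1546, 1880 and 1625 at 7d. The 3h and 7d libraries all lay above the 0h libraries, while 24h replicates 2 and 3 did not. At 3h its log2 fold change was 0.53 (SE 0.15, adjusted p = 0.0372, edgeR), which kept its call without 3h replicate 2 and lost it without each of the other 7 libraries (adjusted p up to 0.117). At 24h it was 0.51 (adjusted p = 0.0185) and at 7d 0.45 (adjusted p = 0.142). At 3h the fit of the compared groups alone called 41 members higher, with 8.97% of all genes higher and 10.1% lower. DESeq2 called 20 higher, with 3.69% of all genes higher and 4.6% lower.

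The remaining subunits called at 24h were Cox4i1, Cox5b, Cox6a2, Cox6b2, Cox7a2, Cox7b and Cox8b, with log2 fold changes from 0.45 to 1.18. Of these 7, the call of Cox6a2 held without each single library, and each of the others was lost without at least 1. The call of Cox6a2 was lost after quantile normalization, with Myl7 or mean gene length as a covariate and without the 3 libraries of shortest length (adjusted p up to 0.194). The value of 1.18 (SE 0.32, adjusted p = 0.0133, edgeR) belongs to Cox6b2, the testis isoform, a transcript of 4.08 to 9.63 TPM at 0h and 7.96 to 15.9 at 24h, where the groups overlap. Cox4i2, Cox6a1, Cox7a1, Cox7b2, Cox7c and Cox8a were not called. Cox7b2, a testis isoform, was the scarcest member, with 0 to 4.87 TPM over all libraries, and its log2 fold changes of -0.45, 0.52 and 0.04 had standard errors from 0.955 to 1.10. Cox5b-ps measured 29.3 to 41.7 TPM at 0h and 43.5 to 65.2 at 24h, with the highest log2 fold change of a complex IV row at 3h, 0.68 (adjusted p = 0.0609), and 0.79 at 24h (adjusted p = 0.0121). Cox5b itself measured 1931 to 2227 TPM at 0h and 2132 to 2605 at 24h (log2 fold change 0.45, adjusted p = 0.0273).

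Cox7a2l, listed here as the supercomplex factor, was not called at any time, and its function in these mice was not tested. It measured 623, 665, 657 and 686 TPM at 0h, 783, 652, 746 and 668 at 3h, 738, 730, 671 and 727 at 24h, and 681, 759, 738 and 626 at 7d. The groups overlap throughout, and the log2 fold changes were 0.30, 0.34 (adjusted p = 0.0523) and 0.19.

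**Figure D4:**
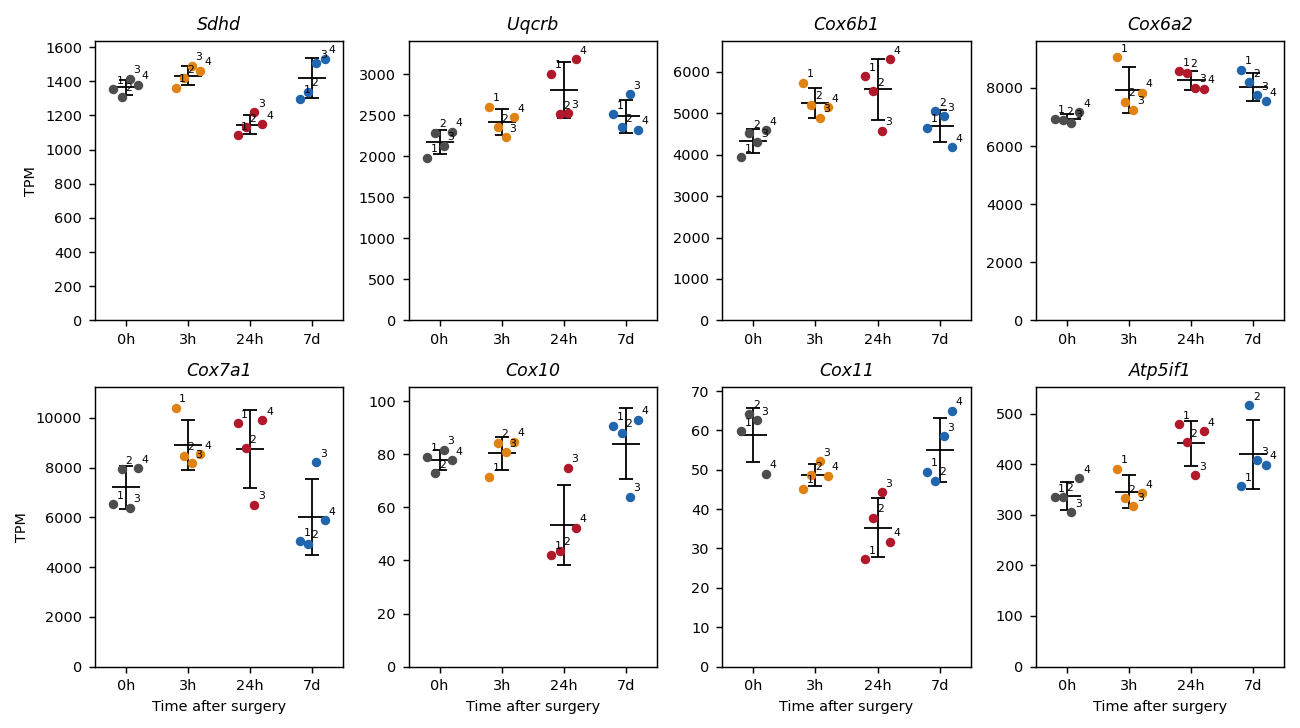
TPM of 8 members in each library by time after surgery; points are libraries with their replicate number, and bars are the mean ± SD of 4 libraries. Cox11 lies lower in the 24h libraries (27.3 to 44.4) than in the 0h libraries (49.0 to 64.3), Sdhd is lowest at 24h, and Atp5if1 lies between 378 and 479 at 24h.

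Cox10 and Cox11 went the other way from the subunits. Cox10 makes haem O, the first step towards the haem A of complex IV, and Cox11 delivers copper to its catalytic core. Cox11 measured 59.8, 64.3, 62.5 and 49.0 TPM at 0h, 45.2, 48.6, 52.2 and 48.5 at 3h, 27.3, 37.8, 44.4 and 31.8 at 24h, and 49.5, 47.2, 58.5 and 65.0 at 7d. Every 24h library lay below every library of the other times. Cox11 fell by 0.53 on the log2 scale at 24h against 0h (SE 0.12, adjusted p = 0.00549, edgeR), and the call held without each single library. It was lost with Myl7 (adjusted p = 0.164) or mean gene length (adjusted p = 0.094) as a covariate and without the 3 libraries of shortest length (adjusted p = 0.112), with log2 fold changes of -0.53, -0.43 and -0.43.

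Cox10 measured 79.1, 73.0, 81.7 and 77.9 TPM at 0h, 71.6, 84.4, 81.0 and 84.9 at 3h, 42.1, 43.7, 75.0 and 52.4 at 24h, and 90.9, 88.2, 64.1 and 93.1 at 7d. 24h replicate 3 stood apart from the other 24h libraries and inside the 0h range. At 24h against 0h its log2 fold change was -0.34 (SE 0.13, adjusted p = 0.08, edgeR). Against 3h it fell by 0.57 (adjusted p = 0.0104) and Cox11 by 0.44 (adjusted p = 0.0315), the only 2 members called in that comparison, in which 4.03% of all genes were higher and 3.56% lower. The call of Cox11 there was lost without any 3h library or 24h replicate 1 or 2 (adjusted p up to 0.109). From 24h to 7d Cox10 rose by 0.54 (adjusted p = 0.0132) and Cox11 by 0.53 (adjusted p = 0.00887), the 2 members higher in that comparison. Leaving out 24h replicate 1 ended the call of Cox10 (adjusted p = 0.0522), and both rises were lost in the fit of the compared groups alone, with Myl7 as a covariate and without the 3 libraries of shortest length. With mean gene length as a covariate both rises kept their call (adjusted p = 0.0319 and 0.0179). The fall of Cox10 against 3h held without each single library and was lost with Myl7 as a covariate (adjusted p = 0.0711) and without the 3 libraries (adjusted p = 0.0745).

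Cox17, the copper chaperone that supplies complex IV assembly, was the 1 assembly factor called higher at 24h. It measured 105, 116, 109 and 107 TPM at 0h and 160, 131, 117 and 148 at 24h, and all 24h libraries lay above all 0h libraries (log2 fold change 0.58, SE 0.16, adjusted p = 0.0141, edgeR). The call was lost without 0h replicate 1 or 24h replicate 1 or 4. Cox15, which turns haem O into haem A, had -0.21 (adjusted p = 0.267), Cox19, a copper-related factor, -0.12 (adjusted p = 0.409) and Cox14, which binds newly made Cox1, 0.11. Cox16, Cox18 and Cox20, factors for Cox2, had 0.49, 0.32 and 0.23 with no call.

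Other complex IV genes outside the Cox names also went in both directions. Of 17 tested, which include the subunit Ndufa4, 5 were higher and 3 lower at 24h, with a median of 0.05. Over all genes tested 9.2% were higher and 8.19% lower. Coa5, an assembly factor, fell by 0.49 (adjusted p = 0.00308), Sco1, a copper chaperone, fell by 0.60 (adjusted p = 0.00398) and Taco1, a translation activator of mitochondrial Cox1, fell by 0.65 (adjusted p = 0.00545). Surf1, a factor in haem A insertion, rose by 0.46 (adjusted p = 0.00533), and Pet100, Coa8, Cmc1 and Ndufa4 rose too. Sco1 measured 21.9, 20.1, 21.6 and 18.8 TPM at 0h and 8.54, 13.0, 16.3 and 9.63 at 24h, and Taco1 measured 97.9 or more in every 0h library and 42.5, 61.3, 81.7 and 47.7 at 24h. In both genes 24h replicate 3 was the highest 24h library and still below every 0h library. From 24h to 7d Sco1 rose by 0.46 (adjusted p = 0.0338) and Taco1 by 0.69 (adjusted p = 0.00606), as Cox10 and Cox11 did. Whether these factors would be called lower without single libraries was not tested.

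The heart and muscle forms Cox6a2, Cox7a1 and Cox8b exceeded their general forms in TPM, and the balance was compared at each time over 24 ratios. Cox6a2, the heart and muscle form, measured 6936, 6883, 6790 and 7164 TPM at 0h and 8574, 8524, 8001 and 7975 at 24h, with no overlap, and rose by 0.47 (SE 0.12, adjusted p = 0.0111, edgeR). Cox6a1, the general form, measured 320, 287, 295 and 304 at 0h and 310, 305, 276 and 243 at 24h, which overlap, with a log2 fold change of 0.13 (adjusted p = 0.512). Their ratio was 21.7, 24.0, 23.0 and 23.6 at 0h, 24.3, 22.5, 21.6 and 21.0 at 3h, 27.7, 28.0, 29.0 and 32.8 at 24h, and 27.6, 23.5, 16.1 and 19.0 at 7d. All 24h ratios lay above all 0h ratios, 24h replicate 3 included, by 0.346 on the log2 scale (exact permutation test, p = 0.0286, the smallest that 4 against 4 allows, adjusted p = 0.171 over the 24 tests). This smallest p was reached by 4 of the 24 tests, and none passed the threshold after adjustment. At 7d the log2 fold change of Cox6a1 was 0.45 (adjusted p = 0.0787, edgeR), the highest of the 16 subunits of complex IV.

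**Figure D5:**
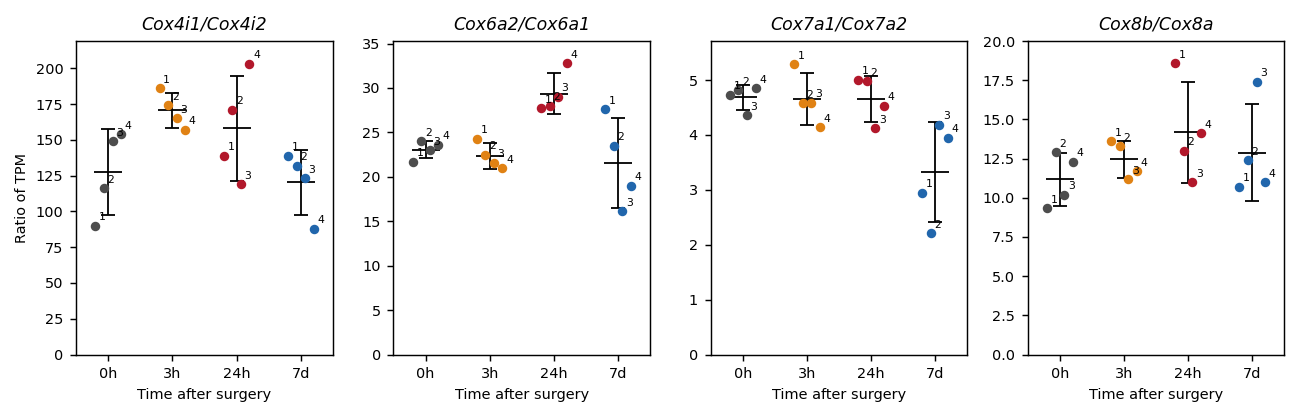
Ratios of TPM of 4 gene pairs in each library by time after surgery; points are libraries with their replicate number, and bars are the mean ± SD of 4 libraries. Cox6a2/Cox6a1 lies highest at 24h, Cox7a1/Cox7a2 lies lower in all 7d libraries than in all 0h libraries, and Cox8b/Cox8a overlaps between all times.

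Cox7a1, the heart and muscle form of that subunit, had the highest mean TPM of all members at 0h, within the spread of Cox6a2 and Cox8b. It measured 6532, 7943, 6383 and 7978 TPM at 0h, 10414, 8482, 8177 and 8538 at 3h, 9785, 8776, 6499 and 9898 at 24h, and 5045, 4937, 8216 and 5877 at 7d. 3 of the 7d libraries lay below every 0h library and 7d replicate 3 above them all. From 24h to 7d it fell by 0.68 (SE 0.19, adjusted p = 0.0332, edgeR), a call lost without 24h replicate 1 or 4 or without 7d replicate 1, 2 or 4 (adjusted p up to 0.123). At 7d against 0h its log2 fold change was -0.17 (adjusted p = 0.718), the lowest of complex IV. Cox7a2, the general form, measured 1380, 1653, 1465 and 1644 TPM at 0h and 1712, 2239, 1960 and 1489 at 7d. The ratio of Cox7a1 to Cox7a2 was 4.69 ± 0.226 at 0h, 4.65 ± 0.474 at 3h, 4.66 ± 0.423 at 24h and 3.32 ± 0.919 at 7d (mean ± SD, n = 4), where single libraries gave 2.95, 2.21, 4.19 and 3.95. All 7d ratios lay below all 0h ratios, which ran from 4.36 to 4.85 (exact permutation test, p = 0.0286, adjusted p = 0.171).

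Cox8b, the heart and muscle form, stood above Cox8a, the general form, by a ratio of 11.2 ± 1.69 at 0h and 14.2 ± 3.21 at 24h (exact permutation test, p = 0.143, adjusted p = 0.686). Cox8b measured 5929, 7276, 6574 and 7619 TPM at 0h and 10671, 9013, 7098 and 10038 at 24h, with 24h replicate 3 inside the 0h range (log2 fold change 0.66, SE 0.18, adjusted p = 0.014, edgeR). The call was lost without 0h replicate 1 or 24h replicate 1 or 4. Cox8a measured 636, 565, 644 and 620 TPM at 0h and 573, 692, 643 and 713 at 24h, values that overlap (0.31, adjusted p = 0.0564). The 2 genes differ in the letters before their starts: the 150 bases of Cox8b hold the E-box, in capitals, and those of Cox8a hold none of the 6 motifs.
Cox8b, chr7:140900447-140900596, - strand: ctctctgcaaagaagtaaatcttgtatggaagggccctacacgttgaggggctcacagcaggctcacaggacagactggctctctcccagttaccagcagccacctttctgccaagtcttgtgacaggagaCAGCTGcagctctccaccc
Cox8a, chr19:7217617-7217766, - strand: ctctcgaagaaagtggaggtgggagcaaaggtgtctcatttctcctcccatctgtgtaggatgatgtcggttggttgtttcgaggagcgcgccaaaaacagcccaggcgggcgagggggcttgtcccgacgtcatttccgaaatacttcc
The E-box of Cox8b begins 19 bases before its start. Cox4i1, the general form that dominates in heart, stood above Cox4i2, the lung form, by a ratio of 127 ± 30.0 at 0h and 171 ± 12.6 at 3h, with 90.1, 116, 149 and 154 in the 0h libraries and 186, 174, 165 and 157 in the 3h libraries. All 3h ratios lay above all 0h ratios (0.448 on the log2 scale, exact permutation test, p = 0.0286, adjusted p = 0.171). The ratio of Cox6b1 to Cox6b2 rests on few reads of Cox6b2, and no difference from 0h was called in it (exact permutation test, p = 0.257 to 0.886).

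Complex V showed 11 of 18 genes higher at 24h and 0 lower, 7 of them among the 9 genes of the peripheral stalk and membrane part. In the F1 head, which carries the catalytic sites, 3 of 5 were called. Atp5f1b, the catalytic beta subunit, measured 3953, 3621, 3653 and 3687 TPM at 0h and 4158, 3669, 4898 and 3944 at 24h. Here 24h replicate 3 was the highest library, unlike in the small subunits, and the groups overlap. Its log2 fold change was 0.38 (SE 0.12, adjusted p = 0.0315, edgeR), lost without any of 0h replicates 1 to 3 or 24h replicates 1 and 4, and 0.42 (adjusted p = 0.0417) with the mean gene length as a covariate, where it was the 1 member called (adjusted p 0.000773 to 0.309 over 15 other settings). Atp5f1c and Atp5f1d, the gamma and delta subunits, rose by 0.38 and 0.41 (adjusted p = 0.0438 and 0.0241). Atp5f1a, the alpha subunit, had 0.23 (adjusted p = 0.196), the lowest of complex V, and Atp5f1e, the epsilon subunit, 0.59 (adjusted p = 0.111), with values from 946 to 2077 TPM within the 24h libraries alone. Atp5f1e had the highest log2 fold change of complex V at 3h, 0.62 (adjusted p = 0.158).

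The c ring, which turns as protons pass, is made of 1 protein encoded by 3 genes, and none was called at 24h, with log2 fold changes from 0.29 to 0.38. At 3h the 3 values lay between 0.32 and 0.42 and at 7d between 0.05 and 0.39, and none was called.

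Stalk and membrane genes gave the 2 highest log2 fold changes of complex V at 24h, those of Atp5mg and Atp5mk. Atp5mg, subunit g of the membrane part, measured 321, 456, 418 and 469 TPM at 0h, 563, 449, 421 and 395 at 3h, 625, 530, 466 and 657 at 24h, and 455, 464, 488 and 385 at 7d. At 24h 1 library, replicate 3, lay just inside the 0h range, and the log2 fold change was 0.68 (SE 0.18, adjusted p = 0.0118, edgeR). Without 24h replicate 4 the adjusted p was 0.0521 (0.0019 to 0.0521 over the 8 libraries left out). The others called were Atp5mf, Atp5mj, Atp5mk, Atp5pd, Atp5pf and Atp5po, with 0.42 to 0.67, where Atp5mk passed at an adjusted p of 0.0499. Each was lost without 0h replicate 1 or 24h replicate 4, among other libraries. With mean gene length as a covariate the 24h values of Atp5mk, Atp5me and Atp5f1e turned to -0.01, -0.06 and -0.16. Atp5pb, subunit b of the stalk, and Atp5me, subunit e, were not called (0.28 and 0.37), and Atp5me had the lowest log2 fold change of complex V at 7d, -0.15.

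Atp5if1, which stops complex V from consuming ATP when the proton gradient fails, had the smallest p of complex V at 24h. It measured 334, 336, 305 and 372 TPM at 0h, 391, 332, 317 and 343 at 3h, 479, 444, 378 and 465 at 24h, and 356, 516, 407 and 399 at 7d. All 24h libraries lay above all 0h libraries, 24h replicate 3 by the least. Its log2 fold change was 0.62 at 24h (SE 0.15, adjusted p = 0.00634, edgeR), which held without each single library, 0.23 at 3h (adjusted p = 0.381) and 0.42 at 7d (adjusted p = 0.172), the highest of complex V at 7d. With mean gene length as a covariate it was 0.23 at 24h (adjusted p = 0.269). The call was also lost with Myl7 as a covariate and without the 3 libraries of shortest length. The log2 ratio of Atp5f1b to Atp5if1 differed from 0h by -0.07 at 3h, -0.23 at 24h and -0.15 at 7d. None of these differences was called (exact permutation test, p = 0.229 to 0.743). Of 6 assembly factors of complex V, 1 was called at 24h: Dmac2l, which rose by 0.48 (adjusted p = 0.00535). Over all genes tested 9.2% were higher at 24h and 8.19% lower. The 7 genes of ATP export and phosphate import, such as Slc25a4, had medians of 0.28, 0.25 and 0.29 with 0 calls.

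Of 11 genes known to regulate these complexes, 1 was lower at 3h, and 1 was higher and 1 lower at 24h, a share of each direction near that of all genes at 24h. Ppargc1b, a coactivator of mitochondrial genes, fell by 1.24 on the log2 scale at 3h (adjusted p = 0.0308) and by 1.17 at 24h (adjusted p = 0.0158). It measured 18.2, 22.2, 17.9 and 21.7 TPM at 0h, 6.21, 8.23, 8.58 and 7.06 at 3h, and 7.43, 8.80, 12.5 and 2.57 at 24h, with no overlap with 0h. Ppargc1a, its better known relative, had 0.08 and -0.29 with no call. Esrra, a nuclear receptor that binds the ERR half-site, fell by 0.44 from 3h to 24h (adjusted p = 0.0129) and rose by 0.43 from 24h to 7d (adjusted p = 0.0144). Tfb2m, a mitochondrial transcription factor, rose by 0.30 at 24h (adjusted p = 0.032). The list's median was -0.15 at 3h and -0.17 at 24h, against members' medians of 0.36 and 0.42.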

How the data were processed

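Left ventricle RNA of 16 libraries was measured by polyA RNA sequencing. Per the labels' protocols, RNA was taken with TRIzol, treated with Turbo DNase and made into directional libraries (NEBNext Ultra II). The submitters' processing notes name cutadapt, STAR and the mm10 build. Versions, the counting program and the strandedness it used: not given in the sources used here. The authors deposited raw counts and TPM per gene in 1 table, both used here as deposited.

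The counts were tested with edgeR 4.0.16 in R 4.3.3 (quasi-likelihood, TMM scaling, robust), in 1 fit of all 16 libraries over the 16866 genes whose mean TPM reached 0.5. p-values were adjusted by Benjamini-Hochberg over all genes in each comparison, with a threshold of 0.05. The SE given with edgeR values was derived as the absolute log2 fold change divided by the square root of the F statistic. Levels and isoform ratios use TPM, the ratios with a pseudocount of 1 on each gene in a 2-sided exact permutation test. The scripts were tested on simulated data. The members and lists were chosen with earlier results of these data known.

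Values were given for the Sdh genes, the 8 called members of smallest p and each complex's extremes against 0h, 4 called members in each direct comparison, isoform pairs, Atp5if1, Cox7a2l and up to 3 called genes of each related list. Other genes were named after their values were seen. Alternatives were other scalings (median of ratios, library totals, quantile), a gene-length trend, filters, DESeq2 1.42.0, limma 3.58.1 on log2(TPM + 1) and log2(TPM + 0.1), other variance and sample choices, a replicate block, and each library left out in turn. Covariates for Myl7 and mean gene length and the removal of 3 libraries were chosen after seeing the data. Genes that share sequence with pseudogenes are uncertain. The result for 1 gene pair is not reported here.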

Additional observations from a re-analysis of the deposited data

Results flagged for a closer look

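Among 160 sets of 4 libraries, 6 held a library far from the other 3 by Dixon's criterion, where chance alone gives about 1 in 20. Sdhc measured 603.2 TPM in 0h replicate 2, against 581.2 to 584.2 in the other 0h libraries, and 598.4 in 7d replicate 2, against 681.5 to 682 in the other 7d libraries. Cox7a1 measured 10410 TPM in 3h replicate 1, against 8177 to 8538. Cox10 measured 64.1 TPM in 7d replicate 3, against 88.2 to 93.1, and Cox7a2l measured 671 TPM in 24h replicate 3, against 726.6 to 737.6. Cox7b2, the scarcest member, measured 4.87 TPM in 0h replicate 3, against 0 to 0.606.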

How the results depend on the processing

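Counts of members called moved with the settings, and so did the shares of all genes called. Those shares are given here as higher/lower where they are not given above. At 3h (1 called) the count was 2 with median-of-ratios scaling, 20 without a filter, 20 by DESeq2, 41 with the compared groups alone, and 0 on log2(TPM + 1) and log2(TPM + 0.1), after removal of a gene-length trend and with Myl7 or mean gene length as a covariate. All genes stood at 1.97%/2.91% with median-of-ratios scaling and 2.63%/3.44% without a filter. On log2(TPM + 1) and log2(TPM + 0.1) they stood at 0.878%/4.33% and 0.783%/3.73%. With the trend removed the share was 1.78%/1.59%, with Myl7 0.528%/0.777% and with mean gene length 0.119%/0.0889%. At 24h (30 called) the members' count was 38 by DESeq2, 37 without a filter, 23 after removal of a gene-length trend, 19 with library totals, 10 after quantile normalization, 15 on log2(TPM + 1), 14 on log2(TPM + 0.1), 18 with the compared groups alone, 0 with Myl7 and 1 with mean gene length as a covariate, and 0 without the 3 libraries. All genes stood at 11.5%/9.33% by DESeq2, 5.97%/5.71% without a filter and 10.5%/5.32% with the trend removed. With library totals the share was 5.74%/13%, on log2(TPM + 0.1) 3.69%/16.8% and with the compared groups alone 6.66%/5.96%. At 7d (0 called) the members' count was 4 without a filter, 1 by DESeq2, 1 with the compared groups alone and 3 without the 3 libraries. In that order all genes stood at 0.952%/1.55%, 1.04%/1.81%, 0.694%/1.73% and 1.01%/2.34%. For 24h against 3h (2 called) the members' count was 4 after quantile normalization, 1 with the compared groups alone, 0 with Myl7 and 7 with mean gene length as a covariate, and 0 without the 3 libraries. In that order all genes stood at 3.9%/4.29%, 2.5%/2.31%, 1.64%/1.65%, 6.14%/5.76% and 1.94%/2.06%. For 7d against 24h (4 called) the members' count was 10 without a filter and 0 with the compared groups alone, with Myl7 and without the 3 libraries. In that order all genes stood at 3.28%/3.41%, 0.729%/1.37%, 0.0474%/0.113% and 0.783%/1.22%. Shares of all genes were not counted with single libraries left out. Leaving out 1 library gave 0 to 1 at 3h, 8 to 41 at 24h, 0 to 1 at 7d, 1 to 3 for 24h against 3h and 1 to 14 for 7d against 24h, with 14 without 24h replicate 3, 1 without 24h replicate 1 and 2 without 24h replicate 4 or 7d replicate 4. The 1 at 7d came without 7d replicate 1, and 24h against 3h gave 1 without any 3h library or 24h replicate 1 or 2. The causes were not tested.

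With the replicate block the count was 25 at 24h, with 7.95% of all genes higher and 7.3% lower. For 7d against 24h it was 2, where Cox10 and Cox11 rose, with 3.31% of all genes higher and 3.62% lower. The numbers did not pair the libraries: deviations correlated at -0.022 on average over 24 pairs of like number and at 0.00738 over 72 others.

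With mean gene length as a covariate 22 of the 57 members at 3h and 11 at 24h took the other sign. On log2(TPM + 1) 6 and 4 did, and after quantile normalization 4 and 2. Values follow for the genes of the naming rule. On log2(TPM + 1) and log2(TPM + 0.1) alike, the 3h values were -0.08 for Atp5f1a, -0.15 for Sdha and -0.04 for Uqcrc2, and the 24h value was -0.03 for Uqcrc1. After quantile normalization Sdha had -0.13 at 3h and -0.03 at 24h, Uqcrc2 0 at 3h and Uqcrc1 -0.06 at 24h. Sdha had -0.03 at 3h with library totals and -0.04 without 3h replicate 4. With mean gene length as a covariate Atp5f1e had -0.11 and Atp5if1 -0.17 at 3h, and Sdhb -0.01 at 7d. Over single libraries left out, Cox7b2 ran from -0.99 to 1.25 at 3h (1.25 without 0h replicate 3), Sdha from -0.04 to 0.11 at 3h, Sdhd from -0.09 to 0.01 at 24h (0.01 without 24h replicate 2), and Uqcrq 0.04 and 0 at 7d without 0h replicate 4 and 7d replicate 4. None of the 24 isoform ratios passed the threshold or changed sign with another pseudocount or CPM. With a library left out, which gave values with no test, 8 of the 24 changed sign (to 2 decimals, 0 counted as neither). Cox4i1/Cox4i2 at 7d ran from -0.22 to 0.08, Cox6b1/Cox6b2 from -0.11 to 0.22 at 3h and -0.26 to 0.15 at 7d, and Cox7a1/Cox7a2 at 24h from -0.05 to 0.05.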
